A study of Mus musculus with 42 samples.

Results

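The enzymes and carriers that burn fatty acids in mitochondria and peroxisomes were examined in mouse bone marrow mesenchymal stromal cells (MSCs), which can form fat, bone or cartilage cells. The set held 34 genes, picked by name for their role in the pathway, of 45317 gene entries in the deposited count table, and all 34 symbols were found. RNA was sequenced after 48 h with tributyltin (TBT, 50 nM), AGN194204 (100 nM, labelled 4204), rosiglitazone (100 nM, labelled ROSI) or the solvent dimethyl sulfoxide alone (DMSO, 0.1%), with 6 libraries per treatment. TBT is an organotin compound that binds retinoid X receptors (RXR), AGN194204 is a synthetic RXR agonist, and rosiglitazone is a drug that activates the receptor PPARγ. Chromatin immunoprecipitation (ChIP) for the histone marks H3K4me3, typical of active gene starts, and H3K27me3, typical of Polycomb-repressed genes, was done on cells given TBT or DMSO, with 4 libraries per mark and treatment. All groups were undifferentiated MSCs of C57BL/6 mice at passage 9 to 10, bought as a cell stock, and the sources used here do not say that the replicates of a treatment were separate isolates. P-values therefore measure the spread between these libraries, which may be technical.

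Long-chain fatty acids cross the mitochondrial membranes as carnitine esters and are then shortened in repeated rounds of dehydrogenation, hydration, dehydrogenation and thiolysis. Very long and branched chains are first shortened in peroxisomes. In many tissues these genes are known targets of the PPAR family of receptors, which bind DNA as pairs with RXR, and mesenchymal cells that become adipocytes raise oxidative and lipid-storing genes together.

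The 24 RNA libraries held 3801758 to 5347365 gene counts each. Of the 34 genes, 30 passed the filter on low counts among 12529 genes tested, and Cpt1b, Acaa1b, Ehhadh and Acot1 did not. Levels are given as CPM, the counts per 1000000 gene reads after TMM scaling, and were not compared between genes because no transcript lengths were used. All 8 stromal markers examined had counts in every treatment; after TBT and after AGN194204, Col1a1 and Ly6a rose and Cd44 and Thy1 fell. The blood cell markers summed to between 6.92 and 16.2 CPM per library, and the hepatocyte markers, at home in the tissue where this pathway is best known, to 0.458 CPM at most. The muscle marker Tnnt2 was lower after TBT and AGN194204 (1.27 and 1.56 CPM, against 4.57 CPM with DMSO; edgeR adjusted p of 0.000346 and 0.00187). The brown adipocyte marker Dio2 was lower likewise (0.613 and 0.963 CPM, against 2.84 CPM; edgeR adjusted p of 0.000337 and 0.00583), and the endothelial marker Pecam1 after AGN194204 (1.31 CPM, against 2.68 CPM; edgeR adjusted p = 0.0043). Of the 3 brown adipocyte markers tested, 1 was higher and 1 lower after TBT, and none was higher after AGN194204. The one higher after TBT was Prdm16 (14.2 CPM, against 9.09 CPM with DMSO). The part of these cell types in the results was not tested. In bulk RNA, more cells of a type and more RNA per cell cannot be told apart.

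After TBT, 19 of the 30 tested genes were higher than in DMSO and none was lower (edgeR quasi-likelihood test, Benjamini-Hochberg adjusted p under 0.05). Of all genes tested, 15% were higher and 13.9% lower. After AGN194204, 18 of the 30 were higher and none was lower, against 12.8% higher and 11.3% lower among all genes. After rosiglitazone 1 gene, Ech1, was higher and none was lower, against 0.615% and 0.423% of all genes, and 7 of the 30 (23.3%) had an unadjusted p under 0.05, against 11.3% of all genes. The median log2 fold change of the 30 genes was 0.25 after TBT, 0.23 after AGN194204 and 0.08 after rosiglitazone, against -0.01, -0.00 and 0.00 over all genes. All 6 TBT libraries lay above all 6 DMSO libraries for 11 of the 30 genes, against 6.73% of all genes, and all 6 AGN194204 libraries did so for 11, against 6.9%. For rosiglitazone this held for Ech1 and Etfb, against 0.838% of all genes.

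**Figure D1:**
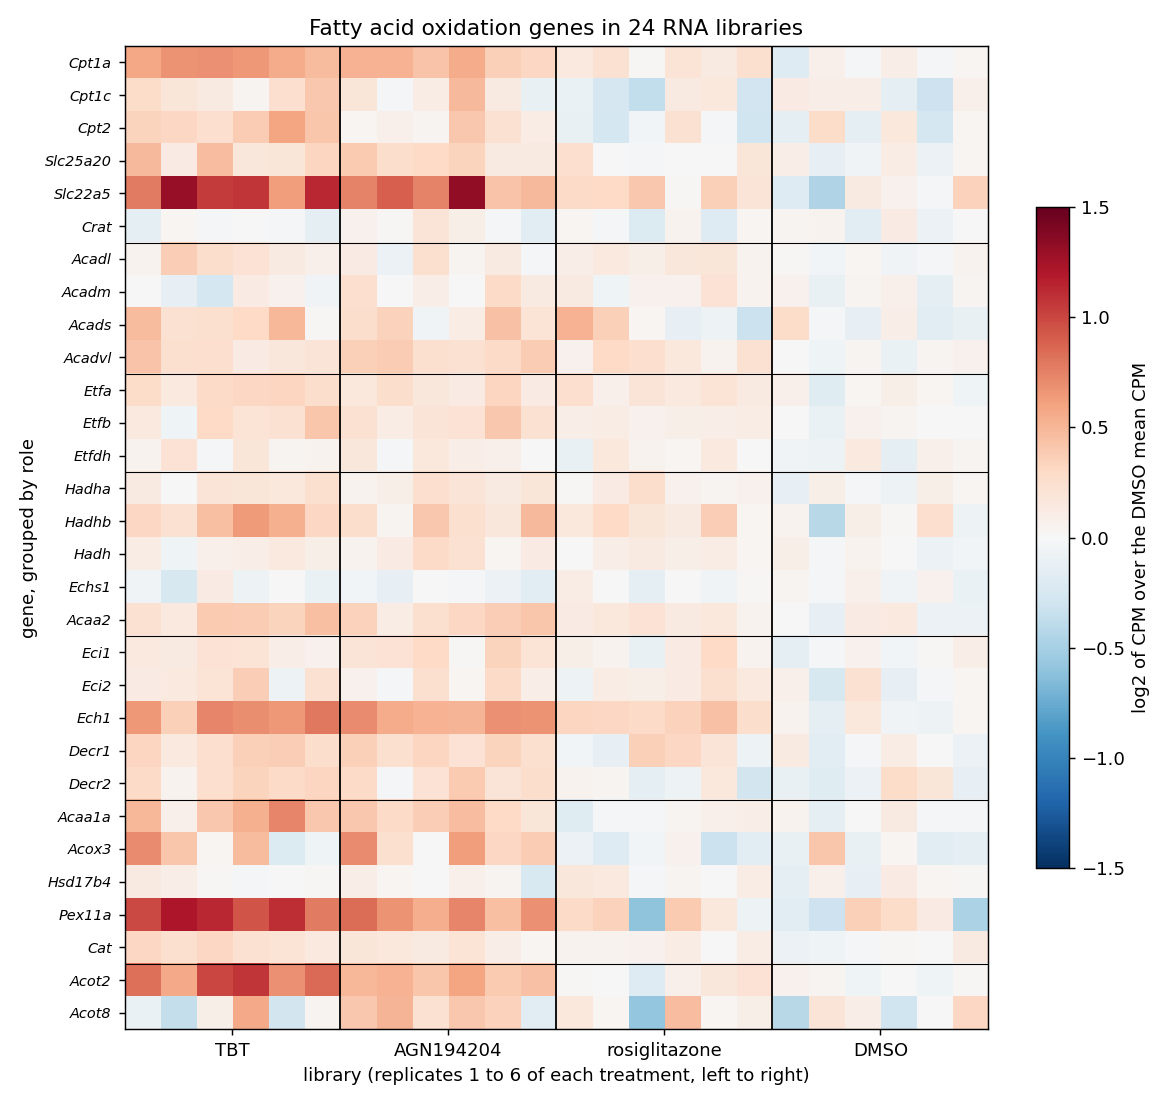
Level of the 30 tested genes in each RNA library, as log2 of the CPM over the mean CPM of the 6 DMSO libraries, with genes grouped by role and libraries by treatment. Slc22a5, Ech1, Pex11a and Acot2 stand out in the TBT and AGN194204 libraries, and most rosiglitazone libraries are close to DMSO.

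Most of these changes were small. Among the 19 genes called after TBT the rise ranged from 11.05% to 106%, with 12 below a log2 fold change of 0.40. Cpt1a, Slc22a5, Ech1, Acot2 and Pex11a rose by at least 1.5-fold, and Slc22a5 and Pex11a by at least 2-fold. The calls after TBT and AGN194204 shared 15 genes, which were 78.9% of the TBT calls and 83.3% of the AGN194204 calls, with the same DMSO libraries behind both. The shared part of the calls over all genes was not counted. Between TBT and AGN194204 only 0.407% of all genes were higher and 0.439% lower. Called after TBT alone were Acadl, Acads, Cpt2 and Decr2, and called after AGN194204 alone were Acox3, Eci1 and Hadh. None of these 7 differed past the threshold between TBT and AGN194204. Acadm, Acot8, Cpt1c, Crat, Echs1, Eci2, Etfdh and Hsd17b4 were called after neither.

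**Figure D2:**
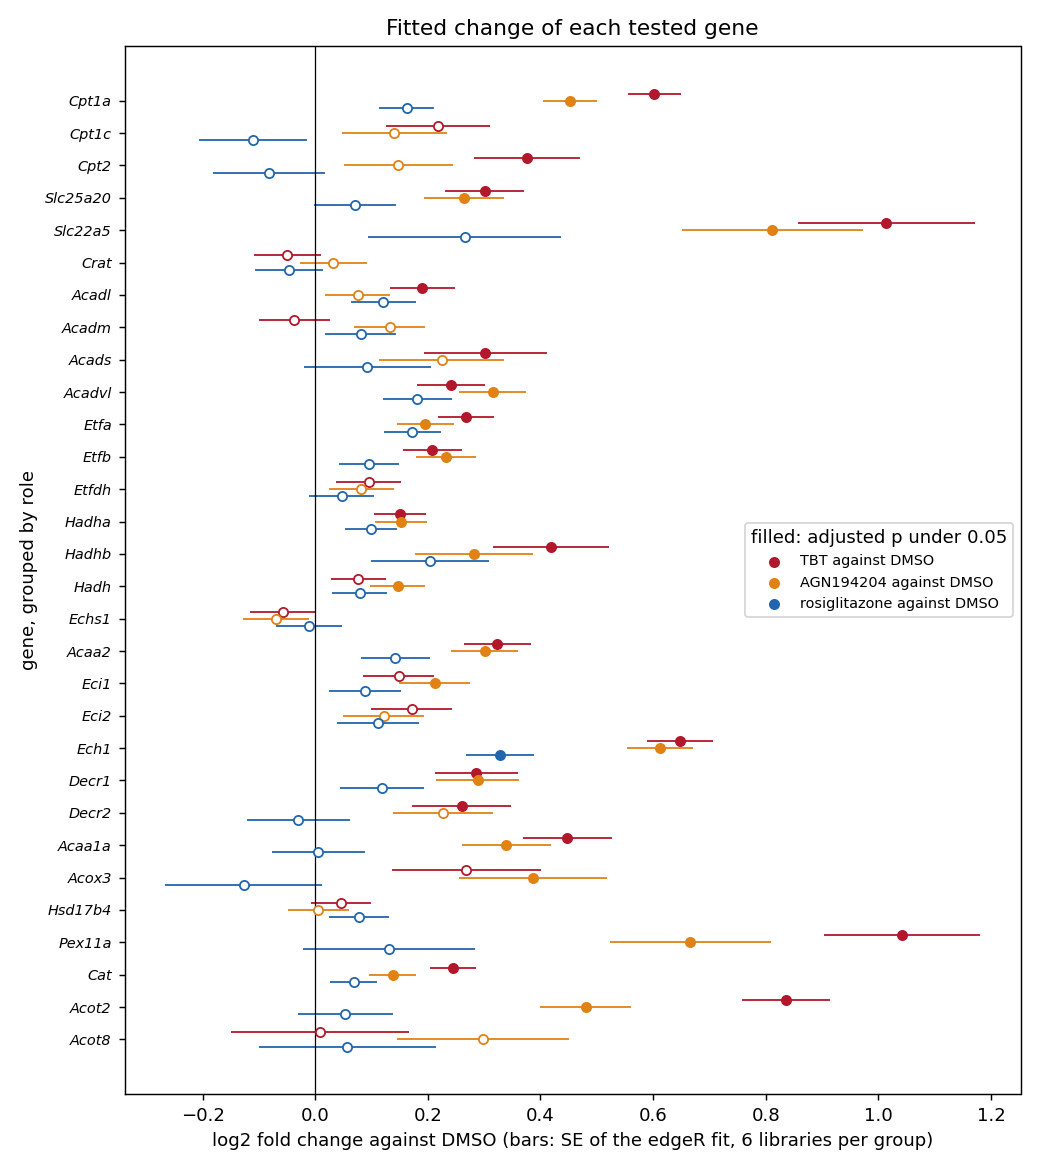
Fitted log2 fold change against DMSO of each tested gene, with bars of 1 SE, for TBT, AGN194204 and rosiglitazone (6 libraries per treatment). Filled points passed the adjusted p threshold; all filled points lie above 0.

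The carnitine shuttle, which carries fatty acids into mitochondria, had 4 of its 6 tested genes higher after TBT, 3 after AGN194204 and none after rosiglitazone. Cpt1a (chr19:3322326-3385735, GRCm38.p6 RefSeq annotation) makes the long-chain acylcarnitine and sets the rate of entry. It had 234 to 271 CPM (median 259) with TBT, 208 to 249 (median 235) with AGN194204, 171 to 199 (median 191) with rosiglitazone and 148 to 181 (median 170) with DMSO. Every TBT and AGN194204 library was above every rosiglitazone and every DMSO library, and the rosiglitazone libraries overlapped with DMSO. The log2 fold change was 0.60 ± 0.05 (SE, n = 6, edgeR adjusted p = 7.12e-13) after TBT and 0.45 ± 0.05 (edgeR adjusted p = 1.74e-09) after AGN194204. After rosiglitazone it was 0.16 ± 0.05 (edgeR adjusted p = 0.109), which passed in a fit of those 2 treatments alone (adjusted p = 0.0405).

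Slc22a5 (chr11:53864542-53891796), the plasma membrane carnitine importer OCTN2, had the second largest rise of the 30 genes after TBT and the largest after AGN194204. It was detected at 10.3 to 16.5 CPM (median 13.96) with TBT, 9.02 to 16.8 (median 11.2) with AGN194204, 6.75 to 8.87 (median 8.21) with rosiglitazone and 4.90 to 8.48 (median 6.80) with DMSO. The TBT and AGN194204 libraries were all above the rosiglitazone and DMSO libraries, which overlapped. The log2 fold change was 1.01 ± 0.16 (SE, edgeR adjusted p = 3.31e-06) after TBT, 0.81 ± 0.16 (edgeR adjusted p = 0.000171) after AGN194204 and 0.27 ± 0.17 (edgeR adjusted p = 0.598) after rosiglitazone. Its start is shown because it was also the only one of these genes with a called H3K4me3 change. The stretch runs 5′ to 3′ on the minus strand, chr11:53891797-53891953, and ends at the outermost annotated start, 93 bases before the start used for the promoter windows (RefSeq, GRCm38.p6). Capitals mark a match to GGGCGG read on either strand, the letters that Sp1-type factors bind. The 250 bases before the start used for the promoter windows held 3 such matches, and those not in capitals lie past the stretch shown.
Slc22a5: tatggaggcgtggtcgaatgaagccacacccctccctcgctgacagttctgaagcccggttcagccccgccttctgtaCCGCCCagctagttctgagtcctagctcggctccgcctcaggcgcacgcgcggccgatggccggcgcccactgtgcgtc
RefSeq promoter windows of 250 bases before the start were found for 29 of the 34 genes. This motif, on either strand, was in 21 of the 29 (72.4%), and in 32.7% of 32851 mouse windows. The mouse windows were not limited to genes expressed in these cells, and the share among such genes was not counted.

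Of the remaining shuttle genes, Slc25a20, the carrier that swaps acylcarnitine for carnitine across the inner membrane, rose after TBT (log2 0.30 ± 0.07 SE, edgeR adjusted p = 0.00115) and after AGN194204 (0.26 ± 0.07, edgeR adjusted p = 0.00488). Cpt2, which turns the ester back into acyl-CoA, rose after TBT (0.38 ± 0.09, edgeR adjusted p = 0.00223), and its value after AGN194204 was 0.15 ± 0.10 (edgeR adjusted p = 0.293). Crat, which handles short-chain acylcarnitines, had log2 values of -0.05 after TBT, 0.03 after AGN194204 and -0.05 after rosiglitazone. Cpt1c, a family member of the endoplasmic reticulum known mainly from neurons, had 0.22 after TBT (edgeR adjusted p = 0.072), which passed in the fit of TBT and DMSO alone (adjusted p = 0.0423). Cpt1b, the muscle form, had 2 counts over the 6 TBT libraries, 4 with AGN194204, 3 with rosiglitazone and 7 with DMSO. That is 0.0762 CPM with TBT (exact 95% Poisson interval 0.00923 to 0.275) and 0.257 CPM with DMSO (0.103 to 0.529), intervals that cover counting error only.

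**Figure D3:**
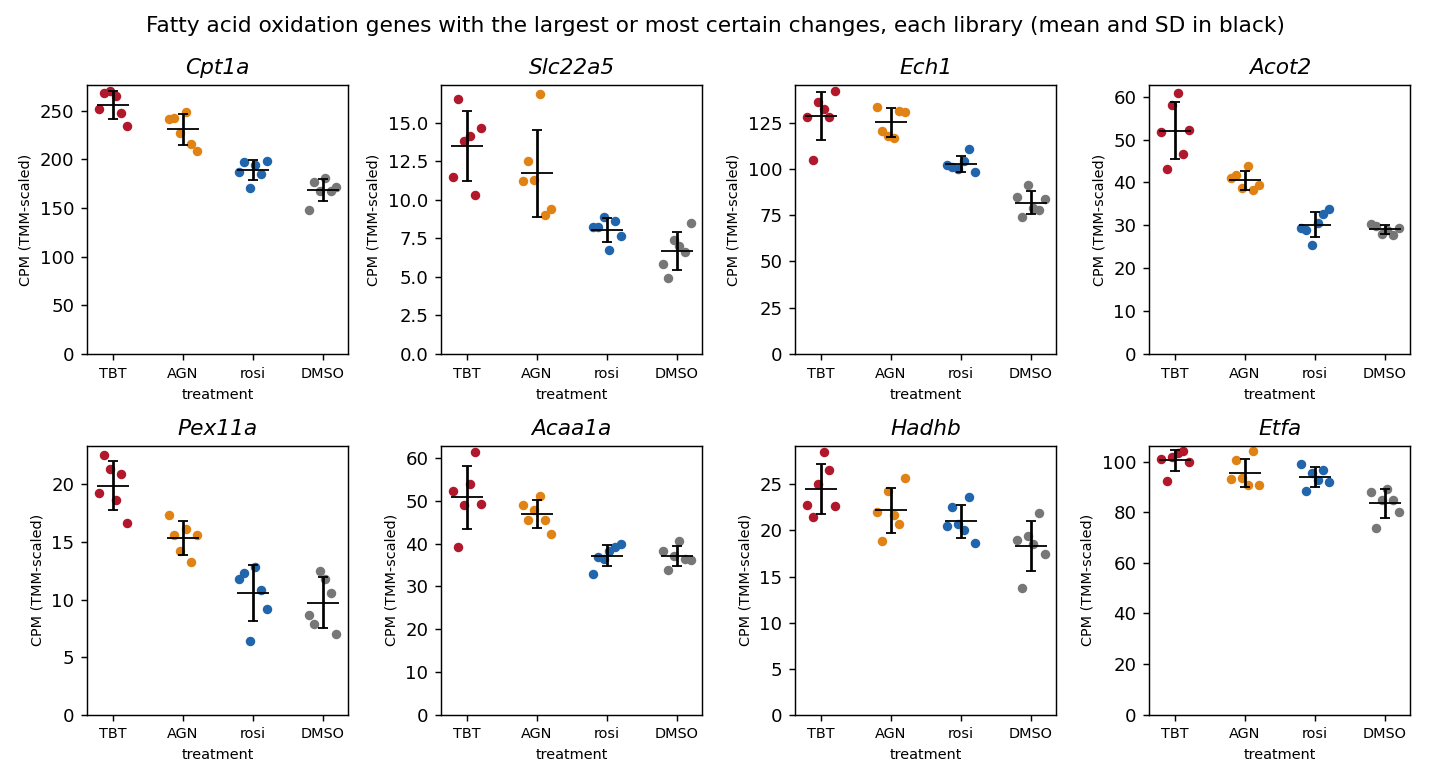
CPM of 8 genes in each library, with the mean and SD of 6 libraries in black; each vertical axis starts at 0. For Cpt1a, Slc22a5, Acot2 and Pex11a the TBT and AGN194204 points (marked AGN) lie above all rosiglitazone (marked rosi) and DMSO points.

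The acyl-CoA dehydrogenases take the first oxidation step, each for a range of chain lengths. Acadvl, for very long chains, rose after TBT (log2 0.24 ± 0.06 SE, edgeR adjusted p = 0.00204) and after AGN194204 (0.31 ± 0.06, edgeR adjusted p = 9.79e-05). Acadl, for long chains, rose after TBT (0.19 ± 0.06, edgeR adjusted p = 0.0102). Acads, for short chains, was called after TBT (0.30 ± 0.11, edgeR adjusted p = 0.035), but the call was lost (adjusted p of 0.052 to 0.093) when DMSO replicate 2, 3, 5 or 6 or TBT replicate 1, 4 or 5 was left out, and with DESeq2 (adjusted p = 0.0538). Acadm, for medium chains, had log2 values of -0.04 after TBT and 0.13 after AGN194204 and was not called.

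The electron transfer flavoprotein passes the electrons of this step to the respiratory chain. Etfa (chr9:55454436-55512243), its alpha subunit, had 92.5 to 104 CPM (median 101) with TBT, 90.9 to 104 (median 93.3) with AGN194204, 88.3 to 99.1 (median 94.2) with rosiglitazone and 73.9 to 89.1 (median 84.9) with DMSO. The TBT and AGN194204 libraries were all above DMSO, and the lowest rosiglitazone library fell just under the highest DMSO library. Log2 fold changes were 0.27 ± 0.05 (SE, edgeR adjusted p = 6.64e-05) after TBT, 0.20 ± 0.05 (edgeR adjusted p = 0.0034) after AGN194204 and 0.17 ± 0.05 (edgeR adjusted p = 0.0967) after rosiglitazone. Etfb, the beta subunit, rose by 0.21 ± 0.05 after TBT (edgeR adjusted p = 0.00252) and 0.23 ± 0.05 after AGN194204 (edgeR adjusted p = 0.000938). Etfdh, which hands the electrons to ubiquinone, had 0.10 ± 0.06 after TBT (edgeR adjusted p = 0.227).

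Among the 5 mitochondrial enzymes of the later steps, 3 were higher after TBT and 4 after AGN194204. Hadha and Hadhb encode the subunits of the mitochondrial trifunctional protein, and their starts lie 273 bases apart on opposite strands of chromosome 5. Hadhb (chr5:30155253-30184593) had 21.4 to 28.5 CPM (median 23.9) with TBT, 18.8 to 25.7 (median 21.8) with AGN194204, 18.7 to 23.6 (median 20.6) with rosiglitazone and 13.7 to 21.9 (median 18.7) with DMSO. The groups overlapped in all 3 comparisons with DMSO. Its log2 fold change was 0.42 ± 0.10 (SE, edgeR adjusted p = 0.0018) after TBT, 0.28 ± 0.10 (edgeR adjusted p = 0.044) after AGN194204 and 0.20 ± 0.11 (edgeR adjusted p = 0.473) after rosiglitazone. The AGN194204 call was lost with an adjusted p of 0.0542 to 0.148 without any 1 of DMSO replicates 1, 2, 4 and 6 or AGN194204 replicates 1, 3, 4 and 6, and also with DESeq2 (adjusted p = 0.066), without the low count filter (0.0981) and in a fit of AGN194204 and DMSO alone (0.0651). Hadha, its partner, rose by 0.15 ± 0.05 after TBT (edgeR adjusted p = 0.0113) and 0.15 ± 0.05 after AGN194204 (edgeR adjusted p = 0.0126).

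Acaa2, the mitochondrial thiolase, rose by 0.32 ± 0.06 on the log2 scale after TBT (edgeR adjusted p = 5.42e-05) and 0.30 ± 0.06 after AGN194204 (edgeR adjusted p = 0.000184). Hadh, the dehydrogenase for shorter chains, was called after AGN194204 (0.15 ± 0.05, edgeR adjusted p = 0.0234). That call was lost without DMSO replicate 5 or AGN194204 replicate 3 or 4 (adjusted p of 0.0554 to 0.0877), and without the low count filter (0.068). Echs1, the short-chain hydratase, had values below 0 in all 3 comparisons, from -0.07 after AGN194204 to -0.01 after rosiglitazone, and was not called.

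Unsaturated fatty acids need auxiliary isomerases and reductases to enter the cycle. Ech1 (chr7:28825338-28832239), an isomerase of dienoyl-CoA, was the only gene called in all 3 comparisons with DMSO. It had 105 to 142 CPM (median 130) with TBT, 117 to 134 (median 126) with AGN194204, 98.2 to 111 (median 102) with rosiglitazone and 74.3 to 91.2 (median 81.5) with DMSO. All libraries of each compound were above all DMSO libraries, all AGN194204 libraries were above all rosiglitazone libraries, and TBT replicate 2 fell within the rosiglitazone range. Log2 fold changes were 0.65 ± 0.06 (SE, edgeR adjusted p = 2.36e-11) after TBT, 0.61 ± 0.06 (edgeR adjusted p = 1.6e-10) after AGN194204 and 0.33 ± 0.06 (edgeR adjusted p = 0.00112) after rosiglitazone.

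Decr1, the mitochondrial dienoyl-CoA reductase, rose by 0.29 ± 0.07 after TBT (log2, edgeR adjusted p = 0.00283) and 0.29 ± 0.07 after AGN194204 (edgeR adjusted p = 0.00317). Decr2, its peroxisomal counterpart, was called after TBT (0.26 ± 0.09, edgeR adjusted p = 0.0236). Without DMSO replicate 1, 2 or 6 the adjusted p of that call was 0.0538, 0.0662 or 0.0536. After AGN194204 Decr2 had 0.23 ± 0.09 (edgeR adjusted p = 0.0583), which passed with the replicate block (0.0378). It also passed there without DMSO replicate 4 or 5, AGN194204 replicate 2 or TBT replicate 2 (0.018 to 0.0481). Eci1, the mitochondrial enoyl-CoA isomerase, was called after AGN194204 (0.21 ± 0.06, edgeR adjusted p = 0.011), and Eci2, a related isomerase, after neither. Eci2 passed after TBT with the replicate block (edgeR adjusted p = 0.0488) and without DMSO replicate 3 (0.0196) or TBT replicate 5 (0.0216).

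Of the peroxisomal genes, Pex11a (chr7:79735957-79743131), a membrane protein that promotes peroxisome division, had the largest log2 fold change after TBT among the 30 genes. It had 16.7 to 22.6 CPM (median 20.1) with TBT, 13.3 to 17.3 (median 15.6) with AGN194204, 6.41 to 12.8 (median 11.3) with rosiglitazone and 7.00 to 12.5 (median 9.62) with DMSO. TBT and AGN194204 libraries were all above rosiglitazone and DMSO, whose ranges overlapped. The log2 fold change was 1.04 ± 0.14 (SE, edgeR adjusted p = 1.67e-07) after TBT, 0.67 ± 0.14 (edgeR adjusted p = 0.000492) after AGN194204 and 0.13 ± 0.15 (edgeR adjusted p = 0.795) after rosiglitazone.

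Acaa1a (chr9:119341028-119350296), a peroxisomal thiolase, had 39.1 to 61.5 CPM (median 50.8) with TBT, 42.2 to 51.2 (median 46.8) with AGN194204, 32.8 to 39.8 (median 37.5) with rosiglitazone and 33.9 to 40.7 (median 36.7) with DMSO. AGN194204 libraries were all above DMSO, the lowest TBT library was within the DMSO range, and rosiglitazone and DMSO covered the same range. Log2 fold changes were 0.45 ± 0.08 (SE, edgeR adjusted p = 2.48e-05) after TBT, 0.34 ± 0.08 (edgeR adjusted p = 0.00127) after AGN194204 and 0.01 ± 0.08 (edgeR adjusted p = 0.989) after rosiglitazone. Its near copy Acaa1b had 49 counts over the 6 TBT libraries, 49 with AGN194204, 49 with rosiglitazone and 43 with DMSO, and reads could be split between the copies.

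Catalase, Cat, which removes the hydrogen peroxide made by peroxisomal oxidation, rose by 0.24 ± 0.04 on the log2 scale after TBT (edgeR adjusted p = 1.27e-05) and 0.14 ± 0.04 after AGN194204 (edgeR adjusted p = 0.0123). Acox3, a peroxisomal oxidase of branched chains, was called after AGN194204 (0.39 ± 0.13, edgeR adjusted p = 0.0273). The call was lost without DMSO replicate 1, 3, 5 or 6 or AGN194204 replicate 1 or 4 (adjusted p of 0.0546 to 0.0985). After TBT Acox3 had 0.27 ± 0.13 (edgeR adjusted p = 0.131), which passed without DMSO replicate 2 (0.0343). Hsd17b4, the multifunctional enzyme of branched chains, had log2 values of 0.05 after TBT and 0.01 after AGN194204. Ehhadh, the multifunctional enzyme of straight chains, had 19 counts over the TBT libraries, 15 with AGN194204, 15 with rosiglitazone and 18 with DMSO.

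Acyl-CoA thioesterases release free fatty acids from CoA. Acot2 (chr12:83987861-83993877), the mitochondrial form, had 43.0 to 61.0 CPM (median 52.0) with TBT, 38.2 to 43.9 (median 40.2) with AGN194204, 25.4 to 33.7 (median 30.0) with rosiglitazone and 27.8 to 30.4 (median 29.2) with DMSO. TBT and AGN194204 libraries were all above rosiglitazone and DMSO, and only the lowest TBT library reached into the AGN194204 range. The log2 fold change was 0.84 ± 0.08 (SE, edgeR adjusted p = 6.2e-11) after TBT, 0.48 ± 0.08 (edgeR adjusted p = 1.52e-05) after AGN194204 and 0.05 ± 0.08 (edgeR adjusted p = 0.863) after rosiglitazone. Its near-identical neighbour Acot1, the cytosolic form, had 22 counts over the TBT libraries, 15 with AGN194204, 43 with rosiglitazone and 22 with DMSO. Single libraries had 3 to 17 counts with rosiglitazone and 2 to 7 with DMSO. The exact 95% Poisson intervals, 1.21 to 2.26 CPM with rosiglitazone and 0.506 to 1.22 CPM with DMSO, touched. Acot1 was too low for a test. The peroxisomal Acot8 had log2 values of 0.01 after TBT and 0.30 after AGN194204 (edgeR adjusted p = 0.16).

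The compounds were then set against each other in 3 pairs, each with p-values adjusted over the 12529 genes. TBT was given at 50 nM and the others at 100 nM, so only AGN194204 and rosiglitazone were at a matched dose. Between TBT and AGN194204, Acot2 alone was called among the 30 genes (52.1 ± 6.70 CPM against 40.5 ± 2.17 CPM, SD, n = 6 each; log2 0.36, edgeR adjusted p = 0.00776), against 0.407% of all genes higher and 0.439% lower. Cpt1a, Cpt2, Acadm, Acot2, Pex11a and Cat, 20% of the 30, had an unadjusted p under 0.05, against 10.1% of all genes. For Pex11a the difference was 0.38 on the log2 scale, with an interval of 0.12 to 0.63 (95%, edgeR adjusted p = 0.206). For Acadm it was -0.17, with an interval of -0.29 to -0.05 (edgeR adjusted p = 0.27). Half-widths of these unadjusted 95% intervals ran from 0.08 for Cat to 0.30 for Acot8, and the adjusted test needs a larger difference than that.

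Between TBT and rosiglitazone, 13 of the 30 genes were higher with TBT and none was lower, against 15.2% and 13.5% of all genes. Between AGN194204 and rosiglitazone, 11 were higher with AGN194204 and none was lower, against 13.5% and 11.2%. The carnitine shuttle gave 5 of the TBT calls and 4 of the AGN194204 calls, and the peroxisomal genes gave 4 and 3. The 6 TBT libraries lay above all rosiglitazone libraries for 6 genes (Cpt1a, Cpt2, Slc22a5, Acot2, Pex11a and Cat), against 6.78% of all genes. The 6 AGN194204 libraries did so for 6 (Cpt1a, Slc22a5, Ech1, Acaa1a, Acot2 and Pex11a), against 6.59%. Pex11a (log2 0.91 for TBT against rosiglitazone, 0.53 for AGN194204 against rosiglitazone), Acot2 (0.78 and 0.43) and Slc22a5 (0.75 and 0.55) were called in both pairs. None of the 4 acyl-CoA dehydrogenases or the 3 electron transfer genes was called in either pair in the main TMM fit. In TBT against rosiglitazone, Acads passed without ROSI replicate 1 (edgeR adjusted p = 0.0282) and Etfb without TBT replicate 2 (0.00523). Decr1 passed there without ROSI replicate 3 or 4 or TBT replicate 2 (0.0237 to 0.0449), and with the replicate block (0.0486). With scaling to the ERCC spike-in RNA the TBT calls against rosiglitazone numbered 18, with Acads (edgeR adjusted p = 0.045), Etfa (0.00924) and Etfb (0.00585) among those gained. Etfb was also called in AGN194204 against rosiglitazone with ERCC scaling (edgeR adjusted p = 0.0417), with RLE scaling (0.0487) and in a fit of those treatments alone (0.0173). It passed there too with the replicate block (0.0281), and without AGN194204 replicate 2 or TBT replicate 1, 2, 3 or 6 (0.0175 to 0.0497). The count for AGN194204 against rosiglitazone was 6 without AGN194204 replicate 4 and 7 without AGN194204 replicate 1. Slc22a5 was lost there without AGN194204 replicate 4 (adjusted p = 0.0521). Decr2 was lost without ROSI replicate 3, 4 or 6 or AGN194204 replicate 1 or 4 (0.0513 to 0.097). Slc25a20 was lost without any 1 of ROSI replicates 2 to 5 and AGN194204 replicates 1 to 4 (0.0645 to 0.11). Acaa2 was lost without any 1 of ROSI replicates 1, 2, 4, 5 and 6, AGN194204 replicates 1, 4, 5 and 6, TBT replicate 5 and DMSO replicate 1 (0.0505 to 0.105). Cpt1c was lost without any 1 of ROSI replicates 1, 2, 3 and 6, AGN194204 replicates 1, 3, 4 and 5, TBT replicates 1, 3, 4 and 5 and DMSO replicates 1, 2, 4 and 6 (0.05 to 0.203). With DESeq2, Cpt1c, Slc25a20 and Acaa2 were lost as well (0.058 to 0.0673). In the TBT pair Acox3 was lost without ROSI replicate 5 or TBT replicate 1, 2 or 4 (adjusted p of 0.0575 to 0.125), and Slc25a20 without TBT replicate 1 (adjusted p = 0.0549).

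With libraries scaled to the added ERCC spike-in RNA in place of TMM, the median of all genes moved by 0.129 (log2) in TBT against rosiglitazone and by 0.0885 in TBT against DMSO. TBT replicate 2 had the lowest spike-in share, 0.326 per 100 gene counts, against 0.399 to 0.453 in the other TBT libraries. Without it the moves were 0.0604 and 0.0210, and 1407 genes were higher and 841 lower after TBT on the ERCC scale. With ERCC scaling of all 24 libraries, genes split into 1802 higher and 293 lower after TBT, against 1878 and 1745 with TMM. After AGN194204 the split was 908 and 300, against 1600 and 1414. The splits were 2426 and 172 for TBT against rosiglitazone (TMM 1908 and 1690), 1162 and 184 for AGN194204 against rosiglitazone (TMM 1697 and 1400), and 13 and 7 for TBT against AGN194204 (TMM 51 and 55). On that scale 20 of the 30 genes were higher after TBT, 12 after AGN194204 and 1 after rosiglitazone, and none was lower. The AGN194204 calls of Hadha, Hadhb, Hadh, Eci1, Acox3 and Cat were lost on it (edgeR adjusted p of 0.0783 to 0.32), and Eci2 was called after TBT (adjusted p = 0.0379). With all libraries on the ERCC scale, the median log2 fold change of the 30 genes was 0.34 after TBT and 0.24 after AGN194204. For all genes it was 0.08 and 0.01. Without TBT replicate 2 the ERCC calls were 17 after TBT and 12 after AGN194204, with Acadl, Hadha and Eci2 lost after TBT (edgeR adjusted p of 0.128, 0.068 and 0.092).

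Genes around the pathway were counted from lists, shown in the plot of called shares. Of all genes tested, 15% were higher and 13.9% lower after TBT, and 12.8% and 11.3% after AGN194204. After rosiglitazone 0.615% were higher and 0.423% lower. Acyl-CoA synthetases and fatty acid transporters, which activate and import the substrate, had 5 of 8 tested genes higher after TBT, 4 after AGN194204 and 1 after rosiglitazone, and none lower. Acsl3 rose to 109 ± 7.09 CPM with TBT and 115 ± 7.82 CPM with AGN194204, against 86.7 ± 1.17 CPM with DMSO (SD, n = 6 each, edgeR adjusted p of 1.63e-06 and 2.91e-08). Peroxisome assembly genes had 6 of 17 higher after TBT, 6 after AGN194204 and none after rosiglitazone. Pxmp4, a peroxisomal membrane protein, rose by 0.60 on the log2 scale after TBT (edgeR adjusted p = 3.76e-06) and 0.70 after AGN194204 (edgeR adjusted p = 2.62e-07).

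Of 24 further oxidation enzymes outside the set, 2 were higher and 2 lower after TBT, 4 and 1 after AGN194204, and none after rosiglitazone. The shares after TBT (8.33% and 8.33%) and AGN194204 (16.7% and 4.17%) were near or below those of all genes. Mlycd, which breaks down the Cpt1 inhibitor malonyl-CoA, rose by 0.56 after TBT (log2, edgeR adjusted p = 1.62e-05) and 0.47 after AGN194204 (edgeR adjusted p = 0.000333). Ivd, of leucine breakdown, fell by 0.25 after TBT (edgeR adjusted p = 0.00312). Of 17 citrate cycle genes, which burn the product of the pathway, none was higher after TBT or AGN194204. The 3 lower after TBT (17.6%) and the 2 lower after AGN194204 (11.8%) were shares near the 13.9% and 11.3% of all genes, and with ERCC scaling none was lower after either. Sucla2 fell by 0.21 after TBT (log2, edgeR adjusted p = 0.000121) and by 0.14 after AGN194204 (edgeR adjusted p = 0.0109). Of 4 ketone body genes tested, Oxct1, which uses ketone bodies, fell by 0.31 after TBT (edgeR adjusted p = 5.62e-07) and by 0.34 after AGN194204 (edgeR adjusted p = 1.32e-07). With ERCC scaling no ketone body gene was lower after TBT and 1 was after AGN194204, and none of the 24 further enzymes was lower after either.

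A mixed list named brakes and uncouplers had 5 of 8 tested genes higher after TBT, 4 after AGN194204 and 1 after rosiglitazone. Its members do not all act against fatty acid oxidation. The Pdk kinases act on pyruvate dehydrogenase, and Prkaa1 and Prkaa2 favour fatty acid oxidation. Pdk4, the kinase that turns off pyruvate dehydrogenase, stood at 183 ± 5.22 CPM with TBT, 135 ± 12.7 CPM with AGN194204, 87.4 ± 4.40 CPM with rosiglitazone and 52.7 ± 3.43 CPM with DMSO (SD, n = 6 each). It was called in all 3 comparisons (edgeR adjusted p of 3.49e-26, 1.55e-21 and 1.99e-11). The list also held Acaca, which makes malonyl-CoA and so opposes Cpt1, and it rose by 0.40 after TBT (log2, edgeR adjusted p = 4.65e-06) and 0.40 after AGN194204 (edgeR adjusted p = 4.48e-06). Of 10 receptors and coregulators, 2 were higher after TBT, 1 was higher after AGN194204 and 1 was lower after rosiglitazone. The shares higher after TBT (20%) and AGN194204 (10%) were near the 15% and 12.8% of all genes. Prdm16, a coregulator known from brown fat, rose by 0.66 on the log2 scale after TBT (14.2 ± 4.07 CPM, against 9.09 ± 1.13 CPM with DMSO, SD, n = 6 each; edgeR adjusted p = 0.0059). Pparg rose by 0.46 after TBT (log2, edgeR adjusted p = 4.4e-07) and 0.63 after AGN194204 (edgeR adjusted p = 3.5e-10), and fell by 0.27 after rosiglitazone (edgeR adjusted p = 0.0356), a call not made with ERCC scaling.

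**Figure D4:**
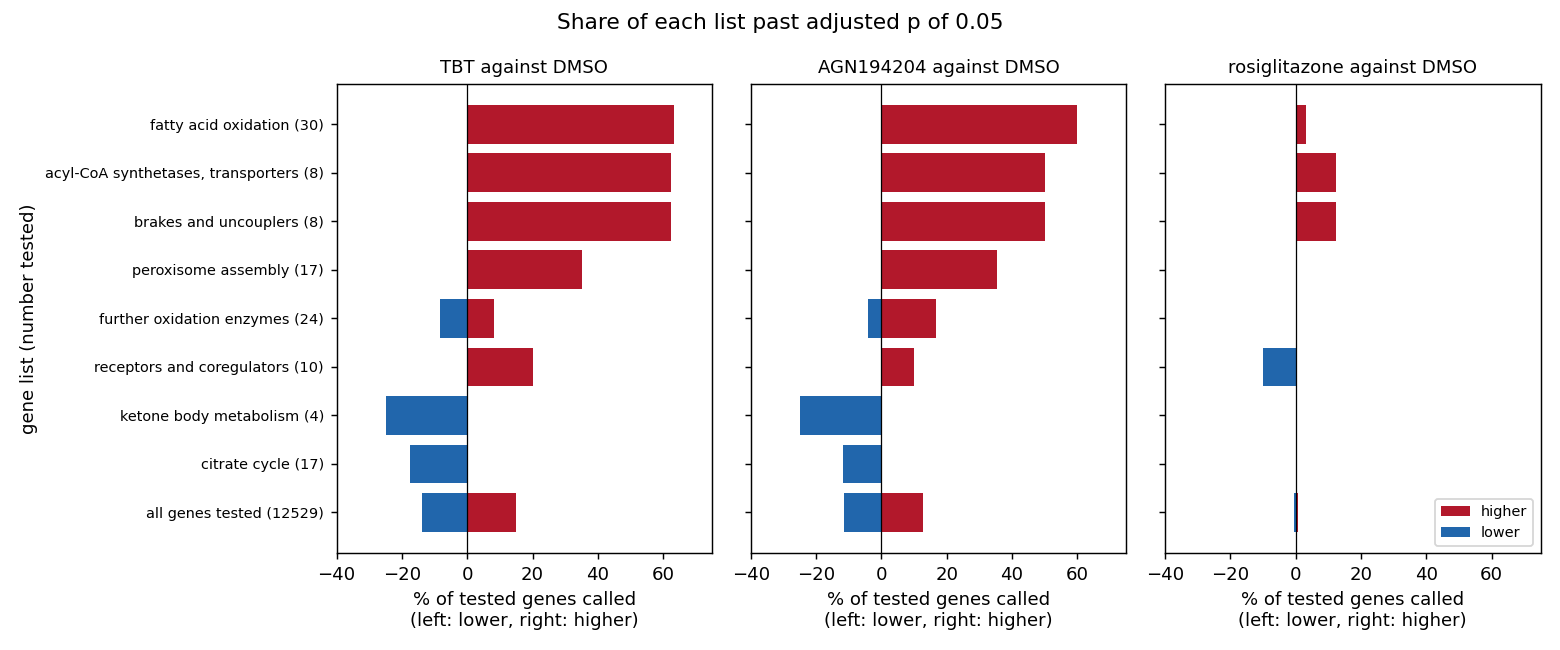
Share of the tested genes of each list called higher (right of 0) or lower (left of 0) against DMSO at an adjusted p under 0.05, with the number tested in parentheses. The 30 fatty acid oxidation genes had 63.3% higher after TBT and 60% higher after AGN194204, against 15% and 12.8% of all genes.

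Adipocyte markers moved in the same comparisons. The 3 tested, Fabp4, Plin4 and Lpl, rose after each compound. Fabp4 averaged 36.3 ± 4.61 CPM with TBT, 21.5 ± 2.92 CPM with AGN194204, 18.5 ± 2.48 CPM with rosiglitazone and 2.24 ± 0.927 CPM with DMSO (SD, n = 6 each; edgeR adjusted p of 1.07e-21, 1.38e-17 and 5.36e-15). The 10 markers together summed to 639 to 706 CPM with TBT, 535 to 636 CPM with AGN194204, 311 to 331 CPM with rosiglitazone and 194 to 210 CPM with DMSO. The markers at 0 counts in every library of a treatment were Adipoq, Lep and Cfd with TBT, Adipoq and Lep with AGN194204, Adipoq, Lep, Retn and Cfd with rosiglitazone, and Lep and Retn with DMSO. The part of these markers in the oxidation gene results was not tested.

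H3K4me3 was then examined at the starts of the 29 genes that had one in the promoter table. The authors' islands of enriched reads covered the start in all 8 libraries for 27 genes. The share of all promoter starts covered in this way was not counted. Acaa1b had an island in 4 of 4 TBT and 2 of 4 DMSO libraries, and Ehhadh in 4 of 4 and 3 of 4. Islands were merged into 12813 regions present in all 8 libraries, and their reads were tested. Slc22a5 was the only one of the 27 genes called, against 0.109% of regions higher and 0.0546% lower, and 2 of the 27 (7.41%) had an unadjusted p under 0.05, against 8.18% of all regions.

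The Slc22a5 region (chr11:53887001-53893000) had 77.6 to 86.9 CPM in the 4 TBT libraries and 57.0 to 64.6 CPM in the 4 DMSO libraries. The groups did not overlap. Means were 81.5 ± 4.20 CPM with TBT and 61.1 ± 3.18 CPM with DMSO (SD, n = 4 each), a log2 fold change of 0.42 ± 0.06 (SE, edgeR adjusted p = 0.037). The call was lost (adjusted p of 0.0575 to 0.0948) without any 1 library other than DMSO replicate 3. The island over its start covered 4.50 ± 0.841 kb with TBT and 3.55 ± 0.870 kb with DMSO, and the reads per kb of island were 17.2 ± 3.44 CPM and 16.6 ± 4.01 CPM. Both measures overlapped between the groups. RNA of Slc22a5 had a log2 fold change of 1.01 in the same comparison.

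Cpt1a, with the next largest H3K4me3 difference, had 218 ± 10.8 CPM with TBT and 189 ± 18.2 CPM with DMSO (SD, n = 4 each), a log2 fold change of 0.20 ± 0.07 (SE, edgeR adjusted p = 0.403). Pex11a and Ech1, with RNA rises of 1.04 and 0.65, had H3K4me3 log2 values of 0.09 (edgeR adjusted p = 0.867) and 0.04 (edgeR adjusted p = 0.855). Acot2, with an RNA rise of 0.84, had an H3K4me3 value of 0.15 (edgeR adjusted p = 0.651). Over the 27 genes the median was 0.03, against -0.00 over all regions, and 18 were above 0. Hadha and Hadhb share 1 region, so the 27 genes stand on 26 regions, and long regions such as that of Ech1 also cover other genes.

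**Figure D5:**
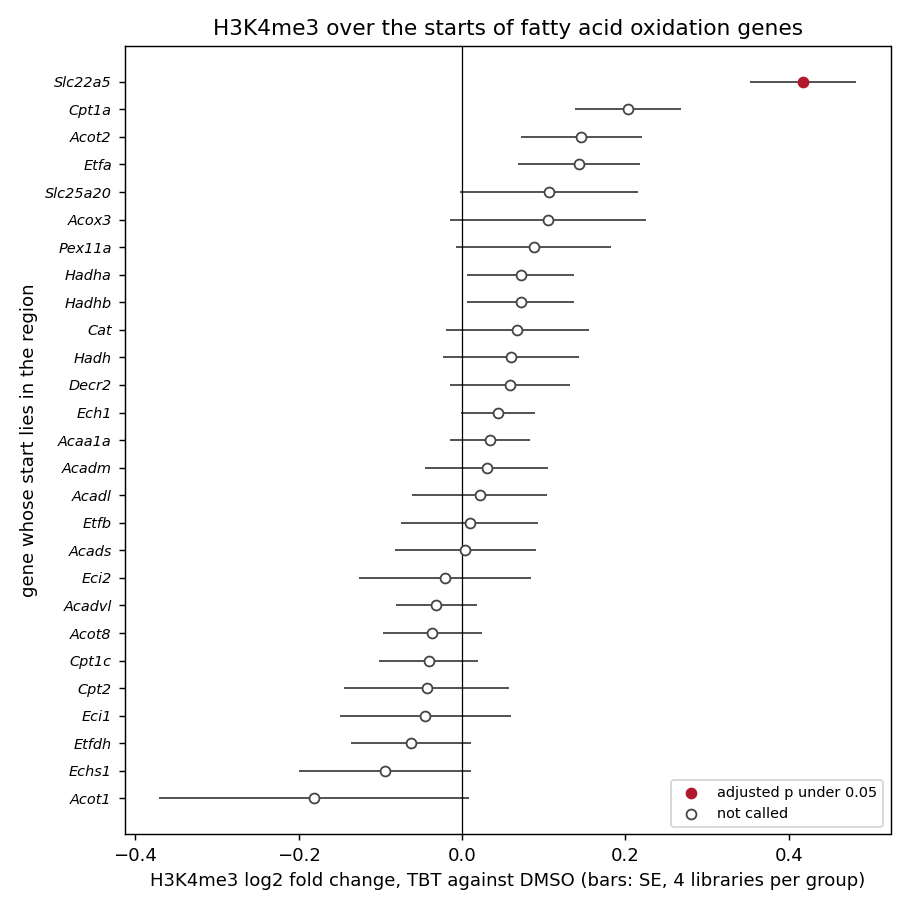
H3K4me3 log2 fold change, TBT against DMSO, of the region over each gene's start, with bars of 1 SE (4 libraries per treatment). Slc22a5, at 0.42, is the only filled point; the others run from -0.18 for Acot1 to 0.20 for Cpt1a.

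H3K27me3 islands were absent over 21 of the 29 starts in all 8 libraries. The share of all promoter starts without such an island was not counted. The start of Acot1, one of the genes too low in RNA to test, was covered in 4 of 4 TBT and 4 of 4 DMSO libraries. Acaa1b, also too low to test, was covered in 4 of 4 TBT and 2 of 4 DMSO libraries. The Acox3 start lay in 1 differential peak of the authors' deposited table (chr5:35576800-35584399), with log2 concentrations of 6.7 with TBT and 4.29 with DMSO and an FDR of 0.0297. In that deposited table the fold is given as DMSO minus TBT, here -2.41, although only 1 of the 4 TBT libraries and 0 of the 4 DMSO libraries had an island over the start.

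The promoter windows, 250 bases before to 50 after the start, were also searched for the element of PPAR and RXR pairs, a direct repeat of AGGTCA with 1 free base between the copies, on both strands and with at most 2 of its 12 fixed letters different. It was found in 4 of 29 windows (13.8%), and in 3.86% of all 32851 RefSeq windows, which were not limited to genes expressed in these cells. An exact match was in none of the 29, and in only 13 of all windows (0.0396%). The half-site AGGTCA, on either strand, was in 6 of the 29 (20.7%), and in 16.3% of all windows. The limit of 2 differences was chosen after looking at the matches, and a match is a description of letters. The 4 matching stretches are shown 5′ to 3′ on the gene's strand with the match in capitals, on the reverse strand for Etfa. They lie at chr2:103485337-103485365 (Cat, minus strand), chr7:140116484-140116512 (Echs1, minus), chr9:55512300-55512328 (Etfa, minus) and chr9:108662134-108662162 (Slc25a20, plus), with each match agreeing at 10 of 12 fixed letters.
Cat: actctcagAGGTCAGAGAACAccagcagg
Echs1: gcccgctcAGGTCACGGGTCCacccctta
Etfa: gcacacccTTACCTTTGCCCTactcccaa
Slc25a20: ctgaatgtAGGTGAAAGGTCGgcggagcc
Cat, Etfa and Slc25a20 were higher after TBT and AGN194204, and Echs1 was called in neither. The 5 genes with the largest rises after TBT, Pex11a, Slc22a5, Acot2, Ech1 and Cpt1a, had no match in their windows.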

How the data were processed

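RNA libraries were strand-specific with ERCC spike-ins, per the labels' protocols. The authors deposited raw read counts per gene symbol; the counting program and its use of strand are not given in the sources used here. Genes that overlap another annotated gene (16 of the 34) or have a near copy are therefore uncertain. Of the 19 genes called after TBT, 12 overlap no other gene, but these include Acot2 and Acaa1a, which have near copies. Cpt1a overlaps Gm36532 and Pex11a overlaps Wdr93. STAR, SAMtools, FastQC, DESeq2, SICER, DiffBind and the builds GRCm38 and mm10 are named in the submitters' processing notes. Reads given to no gene (20.9% to 24.3% outside genes, 1.85% to 2.02% ambiguous) were left out. The authors deposited ChIP islands per library with ChIP and input read counts, a p-value, an FDR and a fold ratio over input, per the file names with a window of 200, a gap of 600 and an FDR of 0.001. The authors' deposited table of differential peaks gives log2 concentrations and log2 folds.

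The deposited log2 normalized counts were not used. Counts of all 24 RNA libraries were fitted once with edgeR 4.0.16 (quasi-likelihood, TMM, filterByExpr, R 4.3.3) and p-values adjusted by Benjamini-Hochberg over 12529 genes at 0.05. The common coefficient of variation was 5.24%. Intervals are the log2 fold change ± 1.96 SE. Islands of the 8 H3K4me3 libraries that overlapped were merged and their summed ChIP reads tested likewise; covered lengths differ between libraries. Alternatives were ERCC and RLE scaling, DESeq2 1.42.0, no filter, a replicate block, pairwise fits, other island rules and leaving out each library. The code was tested on simulated data. Positions and sequences are from RefSeq, GRCm38.p6.

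Values per library are given for genes called against DMSO with a log2 fold change of at least 0.4 and for the 3 smallest adjusted p-values per comparison with DMSO. Genes and lists were chosen with earlier results of these data known. In 60 pairs of libraries of one treatment none was identical, with chi-square per degree of freedom from 1.35 to 4.79. Sequencing runs held at most 12 pooled libraries, per the labels' protocols, which do not say which; no comparison within runs was made.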

Additional observations from a re-analysis of the deposited data

Results flagged for a closer look

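Each of the 30 tested genes was checked in each treatment for a library that lay far from the other 5, by its gap to the nearest one over the range of all 6. Of 120 such checks 6 were positive, and chance gives about 1 in 20. In 4 of the 6 the library was TBT replicate 2, the lowest of its group. Ech1 had 105 CPM there, against 128 to 142 in the other TBT libraries. Hadh had 86.1 CPM, against 95.1 to 99.8. Decr2 had 29.1 CPM, against 33.6 to 35.5. Etfa had 92.5 CPM, against 100.0 to 104. This library was the lowest of the 6 TBT libraries for 14 of the 30 genes, and without it 1998 genes were higher and 1907 lower after TBT, against 1878 and 1745 with it. In DMSO, Acox3 was highest in replicate 2 with 25.3 CPM, against 16.9 to 19.4. With AGN194204, Hsd17b4 was lowest in replicate 6 with 80.9 CPM, against 94.3 to 102. TBT replicate 2 also had the lowest spike-in share of the TBT libraries, 0.326 per 100 gene counts, against 0.399 to 0.453. The cause of these values was not tested.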

How the results depend on the processing

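No fold change of the 30 genes or of the H3K4me3 regions over their starts changed sign among called values under any alternative run. With ERCC scaling, genes lower after TBT numbered 293 and genes called after AGN194204 908 higher and 300 lower. Rosiglitazone then gave 21 and 12, TBT against AGN194204 13 and 7, and genes lower against rosiglitazone were 172 for TBT and 184 for AGN194204. With ERCC scaling and TBT replicate 2 left out, chosen after seeing the data, genes lower were 841 after TBT and 596 after AGN194204, rosiglitazone gave 26 and 17, TBT against AGN194204 gave 8 and 11, and genes lower against rosiglitazone were 475 for TBT and 369 for AGN194204. Genes lower after rosiglitazone numbered 53, but 102 without the filter and 121 in a fit of 2 treatments alone, where the oxidation genes higher were 2 (Cpt1a added) and genes lower in TBT against AGN194204 were 31. With the replicate block, genes lower after rosiglitazone were 110 and oxidation genes higher 2; TBT against AGN194204 gave 86 and 83 genes and 2 oxidation genes (Cpt1a added, adjusted p = 0.0488). The replicate numbers paired the libraries weakly at most. Correlations of same-numbered RNA libraries ran from -0.05 to 0.12, and of H3K4me3 libraries from 0.00 to 0.08. The median in TBT against AGN194204 was 0.045 for the same number and -0.007 for other numbers. In AGN194204 against DMSO it was 0.046 and -0.009, and in rosiglitazone against DMSO -0.008 and -0.0007. In TBT against AGN194204, 5 of the 12 libraries, each matched to the other group, correlated best with their own number. That count was 1 in rosiglitazone against DMSO and 4 in each other comparison, a hint of pairing from the data only. H3K4me3 regions called, 14 higher and 7 lower, were 71 and 65 with DESeq2, 43 and 24 with islands in at least 4 libraries, and 3 lower with islands of FDR at most 1e-10.

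Leaving out 1 library at a time gave 17 to 20 oxidation genes after TBT, 15 to 19 after AGN194204, 1 after rosiglitazone, 11 to 14 for TBT against rosiglitazone and 6 to 12 for AGN194204 against rosiglitazone. Genes lower after rosiglitazone ran from 32 to 87 (33 and 32 without DMSO replicates 2 and 4, 34 and 34 without ROSI replicates 3 and 5, 87 without TBT replicate 2). Genes higher in TBT against AGN194204 ran from 33 (without TBT replicate 3) to 66. H3K4me3 calls ran from 5 to 9 higher and 0 to 3 lower, so each of the 8 libraries moved them by over 1.5 times. The cause of these shifts was not tested. At 3801758 to 5347365 counts per library, Cpt1b, Acaa1b, Ehhadh and Acot1 were too low for a test, and changes of low genes such as Acot8 were seen with wide intervals.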
